A study of Mus musculus with 12 samples.

Results

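The 9 genes described here encode enzymes of hepatic gluconeogenesis and genes known for their regulation by insulin and counter-regulatory hormones: Pcx, Pck1, Fbp1, G6pc, Ppargc1a, Foxo1, Irs2, Igfbp1 and Tat. They were listed by name and matched to the array by gene symbol, through probe sets that carry a single symbol, with the probe set of highest mean intensity representing a gene. The list was chosen with earlier results of these data known. All 9 passed the brightness filter and were among the 13987 genes tested. Whole livers came from ovariectomized mice, 3 months old and labelled C57BL/6. The mice were wild type, ERKO, which the labels describe as knockout for oestrogen receptor alpha, or MOER, which express that receptor only at the membrane. After 1 week of recovery they were injected into the peritoneum on 3 days, with injections of 0.1 mL of oil or of PPT, 100 µg daily, which activates that receptor selectively. This gave wild type oil, wild type PPT, MOER oil, MOER PPT, ERKO oil and ERKO PPT groups, with 2 arrays in each of the 6 groups and 12 arrays in all. Each array was hybridised with RNA pooled from 3 animals, and whether the replicate arrays are of separate pools is not said in the labels, so p-values measure only the spread between these arrays. All groups, controls included, had lost their ovaries, and in whole liver a smaller number of cells of a type and less RNA per cell cannot be told apart.

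Gluconeogenesis makes glucose in the fasting liver from lactate, amino acids and glycerol. Pyruvate carboxylase (Pcx) and phosphoenolpyruvate carboxykinase (Pck1) bypass the pyruvate kinase step of glycolysis, fructose-1,6-bisphosphatase (Fbp1) bypasses phosphofructokinase, and the catalytic subunit of glucose-6-phosphatase (G6pc) releases free glucose. Glucagon, acting through cAMP and CREB, raises the transcription of Pck1, G6pc and the coactivator PGC-1alpha (Ppargc1a), while insulin, acting through IRS2 (Irs2) and AKT, excludes the transcription factor FOXO1 (Foxo1) from the nucleus and so lowers G6pc, Pck1, Irs2 and Igfbp1. Igfbp1 encodes a secreted protein that binds insulin-like growth factors, and Tat encodes tyrosine aminotransferase, a classic glucocorticoid-induced liver enzyme.

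The start sites of all 9 genes were found in the RefSeq promoter table of build GRCm38.p6, with 2 starts for Pcx. The 250 bases before the annotated start are printed for the 4 members whose PPT responses were largest and which carry a searched motif, since these are the sequences in which the hormone-responsive elements of textbook gluconeogenic promoters are sought. They are Pck1 at chr2:173152823-173153072 on the plus strand, G6pc at chr11:101367466-101367715 on the plus strand, Ppargc1a at chr5:51567726-51567975 on the minus strand and Igfbp1 at chr11:7197537-7197786 on the plus strand, each written 5′ to 3′ on the gene's own strand. Capitals mark a match, on either strand, to a FOXO element (GTAAACA or CAAAACA) or to the core of the cAMP response element (ACGTCA).
Pck1: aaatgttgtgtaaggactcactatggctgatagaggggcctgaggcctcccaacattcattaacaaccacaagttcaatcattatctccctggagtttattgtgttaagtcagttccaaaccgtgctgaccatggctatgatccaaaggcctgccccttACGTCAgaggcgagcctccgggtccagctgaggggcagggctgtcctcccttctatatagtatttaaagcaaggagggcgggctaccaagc
G6pc: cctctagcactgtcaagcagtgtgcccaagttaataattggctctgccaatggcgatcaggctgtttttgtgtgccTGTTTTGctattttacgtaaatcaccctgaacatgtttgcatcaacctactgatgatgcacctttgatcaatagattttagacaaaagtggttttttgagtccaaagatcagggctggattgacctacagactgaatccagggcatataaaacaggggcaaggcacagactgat
Ppargc1a: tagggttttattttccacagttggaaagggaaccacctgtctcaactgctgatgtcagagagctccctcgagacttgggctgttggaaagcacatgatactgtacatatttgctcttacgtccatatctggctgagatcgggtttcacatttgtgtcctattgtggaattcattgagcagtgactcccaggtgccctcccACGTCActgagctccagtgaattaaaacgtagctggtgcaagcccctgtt
Igfbp1: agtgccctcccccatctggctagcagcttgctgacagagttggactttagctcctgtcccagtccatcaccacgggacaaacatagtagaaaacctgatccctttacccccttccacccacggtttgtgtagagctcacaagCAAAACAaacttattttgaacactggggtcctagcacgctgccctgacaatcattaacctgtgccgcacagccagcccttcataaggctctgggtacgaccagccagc
The cAMP core stood 91 to 86 bases before the start of Pck1 and 50 to 45 bases before that of Ppargc1a. The FOXO element CAAAACA stood 108 to 102 bases before the start of Igfbp1, and its reverse complement stood 174 to 168 bases before that of G6pc and 37 to 31 bases before that of Irs2. No match to these 3 motifs was found in the windows of Fbp1, Pcx, Foxo1 or Tat, and no member's window held the FOXO element GTAAACA, the glucocorticoid response element core ACANNNTGT or the oestrogen response element GGTCANNNTGACC. Of all 32851 windows of the same length in the table, 5.56% held CAAAACA, 6.47% ACGTCA, 3.17% GTAAACA, 5.84% ACANNNTGT and 0.0639% the oestrogen response element. A match is a description of the letters and not evidence of binding.

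The arrays had median intensities of 77.5 to 85.26. The 2 arrays of a group correlated at r = 0.994 to 0.996 over the tested probe sets, except ERKO oil, at r = 0.981. In that group 162 tested probe sets differed over 2-fold between the 2 arrays, against 2 to 21 in the others. The measured hepatocyte markers, 9 of 10 listed, were bright in every group, but their sum was not level. It was 104722 to 111611 in the wild type PPT arrays against 123431 to 125370 in wild type oil. In ERKO oil it was 99810 to 133610, and in the remaining groups 126514 to 131426. With PPT, 2 of the 9 fell in wild type (median log2 change -0.17, all tested probe sets 16.2%), 0 in MOER and 1 in ERKO. The part of this fall in the values of the 9 genes described here was not tested. RNA of other tissues moved with group: the summed intensity of 11 pancreatic acinar markers was 36868 to 47065 in the MOER oil arrays against 458 to 715 elsewhere, and that of 6 skeletal muscle markers was 7631 to 8033 in the ERKO PPT arrays against 374 to 524 elsewhere. With PPT, 10 of the 11 acinar markers fell in MOER and 6 of 6 muscle markers rose in ERKO. The sum of 6 of 7 adipocyte markers was 1453 to 1460 in ERKO PPT and 1202 to 1207 in wild type PPT, against 499 to 683 elsewhere. With PPT, 3 of the 5 tested adipocyte markers rose in ERKO (median log2 change 0.53) and 1 in wild type (median -0.017). In wild type Fabp4 went from a mean intensity of 409.7 to 950.5 and Adipoq from 27.9 to 23.9. Only markers that passed the brightness filter were tested, and a marker could pass it through the group where it was high. All 11 acinar markers exceeded the 40th percentile of both arrays in MOER oil, against 1 to 4 in the other groups. For muscle it was 6 in ERKO PPT against 3 elsewhere, and for adipocytes 5 against 2 or 3. The counts of these markers that rose or fell are thus descriptions and no test. Over all arrays, islet sums were 373 to 586 and kidney tubule sums 267 to 419.7. Of 8 macrophage markers, 3 rose and 1 fell with PPT in wild type, 3 rose in MOER and 5 fell in ERKO. The part of this RNA in the values of the 9 genes was not tested, and that of the acinar and muscle RNA cannot be told apart from these groups because it fills both of their arrays. Intensities of the targeted gene, Esr1, were 309 to 365 in the wild type arrays and 117 to 162 in the MOER and ERKO arrays, so its level sets wild type apart but does not tell MOER from ERKO.

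**Figure D1:**
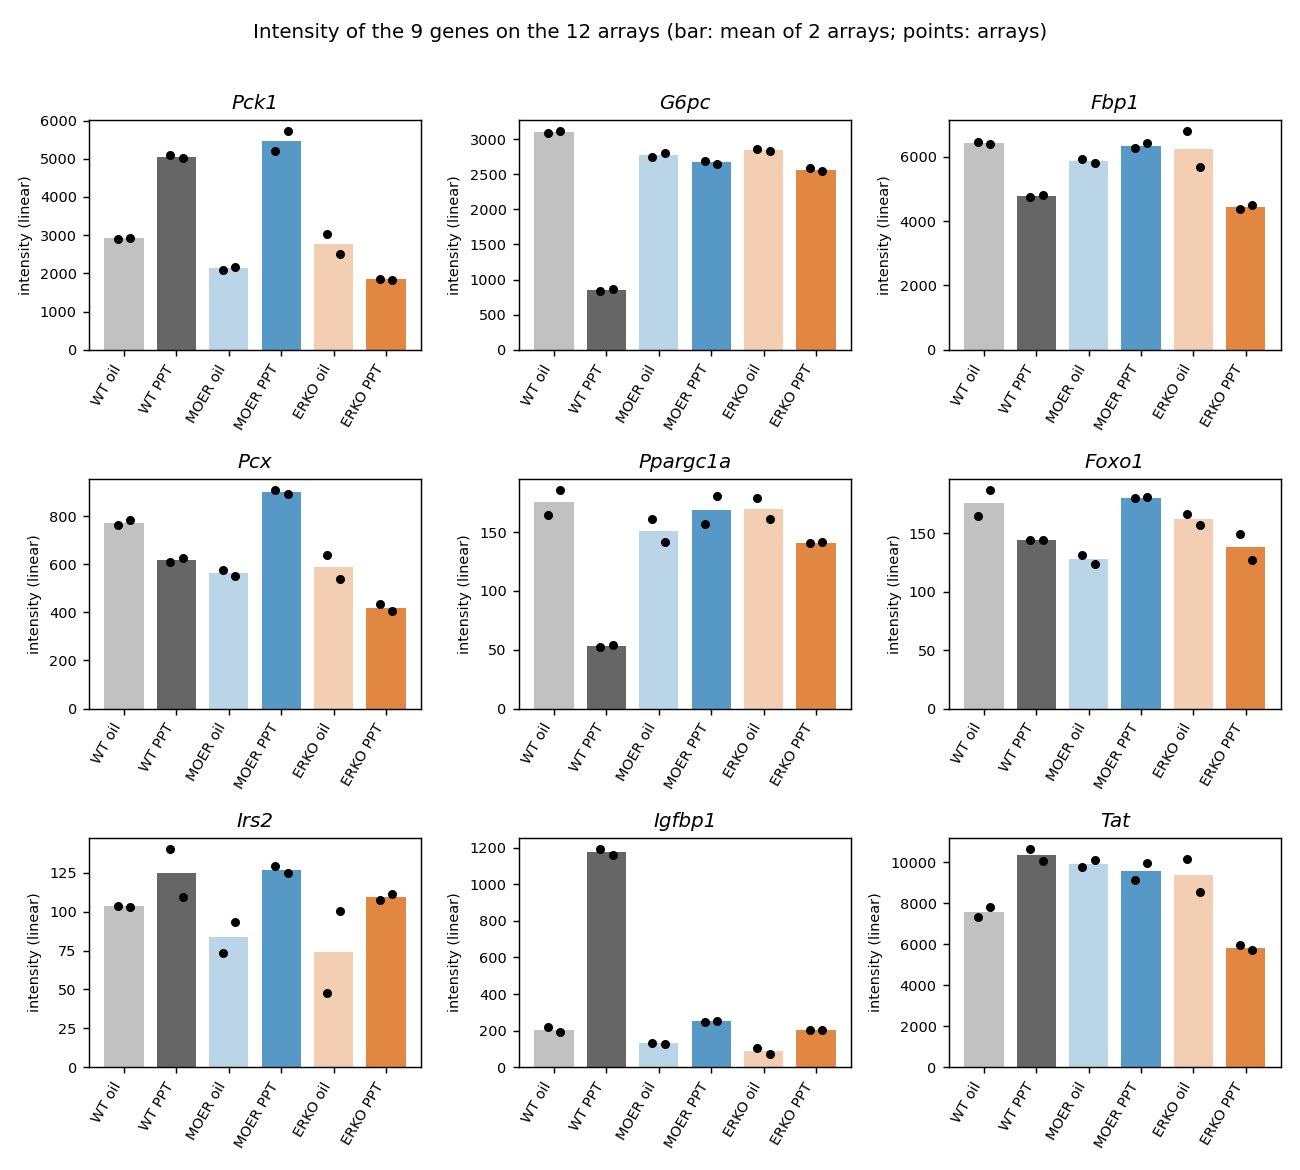
Intensity of the 9 genes in each of the 12 arrays (points, 2 per group) with the group mean (bar), on a linear axis that starts at 0, for wild type (WT), MOER and ERKO livers given oil or PPT. G6pc and Ppargc1a were low in the wild type PPT arrays alone, and Igfbp1 was highest there.

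The 9 genes did not all move together under PPT, and their responses differed between genotypes. In wild type liver G6pc and Ppargc1a fell over 3-fold and Igfbp1 rose over 5-fold, and in MOER liver Pck1 rose over 2-fold, with smaller rises of Pcx, Foxo1 and Igfbp1. In ERKO liver Igfbp1 again rose over 2-fold, while Pck1, Fbp1, Pcx and Tat fell by less than 2-fold. A gene is called changed where its adjusted p is under 0.05 in limma, with Benjamini-Hochberg adjustment over all 19119 tested probe sets, and log2 changes are differences of mean log2(intensity + 16) with the standard error of the fit. Intensities of different probe sets are not comparable between genes.

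Among the enzymes of the pathway, pyruvate carboxylase carries out the entry step. Pcx intensities were 762 and 785 in the wild type oil arrays, 610.4 and 629 in wild type PPT, 578 and 553 in MOER oil, 911 and 894 in MOER PPT, 641 and 539 in ERKO oil and 434 and 405 in ERKO PPT. The MOER PPT arrays were the highest and the ERKO PPT arrays the lowest of all, and the MOER oil arrays lay within the range of the ERKO oil arrays. PPT raised Pcx 1.60-fold in MOER (log2 change 0.66 ± 0.10, limma adjusted p = 0.00240), and lowered it 1.25-fold in wild type (-0.31 ± 0.10, adjusted p = 0.0320) and 1.41-fold in ERKO (-0.47 ± 0.10, adjusted p = 0.00891). The wild type call was lost when any 1 of the 4 wild type arrays was left out (log2 changes -0.33 to -0.29, adjusted p = 0.105 to 0.154), and the ERKO call without the second ERKO PPT array (-0.42, adjusted p = 0.0821).

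Pck1, the enzyme that commits oxaloacetate to glucose synthesis, gave intensities of 2901 and 2937 in the wild type oil arrays, 5087 and 5031 in wild type PPT, 2089 and 2176 in MOER oil, 5211 and 5729 in MOER PPT, 3037 and 2513 in ERKO oil and 1841 and 1838 in ERKO PPT. PPT arrays stood above the oil arrays in wild type and MOER without overlap, and below them in ERKO. Of neighbouring groups in the order of the means, only wild type oil and ERKO oil overlapped. The rise was 2.57-fold in MOER (log2 change 1.35 ± 0.10, limma adjusted p = 1.90e-05) and 1.73-fold in wild type (0.79 ± 0.10, adjusted p = 1.61e-04), and in ERKO Pck1 fell 1.51-fold (-0.58 ± 0.10, adjusted p = 0.00385). The upstream sequence of Pck1 printed above holds the cAMP core, as does that of Ppargc1a. The part of this core in the response of either gene was not tested.

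Fbp1 removes the phosphate from carbon 1 of fructose-1,6-bisphosphate. Its mean intensity (± SD, n = 2) was 6416 ± 51.2 in wild type oil and 4768 ± 47.8 in wild type PPT, 5863 ± 79.9 in MOER oil and 6347 ± 113 in MOER PPT, and 6239 ± 794 in ERKO oil and 4433 ± 94.6 in ERKO PPT. The wild type PPT and ERKO PPT arrays lay below all others, while each of the other 4 groups overlapped its neighbours in the order of the means. Fbp1 fell 1.35-fold in wild type (log2 change -0.43 ± 0.10, limma adjusted p = 0.00623) and 1.41-fold in ERKO (-0.49 ± 0.10, adjusted p = 0.00738). Its change in MOER was 0.11 ± 0.10 (adjusted p = 0.694, 95% interval -0.10 to 0.33). The ERKO call was lost without the first ERKO PPT array (log2 change -0.46, adjusted p = 0.0508).

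G6pc encodes the last enzyme of the pathway, which frees glucose for export. Its intensities were 3085 and 3117 in the wild type oil arrays, 844 and 869.7 in wild type PPT, 2746 and 2800.0 in MOER oil, 2696 and 2649.8 in MOER PPT, 2855 and 2825 in ERKO oil and 2583 and 2549.7 in ERKO PPT. The wild type PPT arrays stood far below the other 10, which all lay between 2549.7 and 3117, and no groups next to each other in the order of the means overlapped. PPT lowered G6pc 3.62-fold in wild type (log2 change -1.84 ± 0.078, limma adjusted p = 4.68e-08). Its log2 change was -0.053 in MOER (95% interval -0.23 to 0.12, adjusted p = 0.853) and -0.15 in ERKO (95% interval -0.32 to 0.028, adjusted p = 0.233).

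Among the regulators, the coactivator gene Ppargc1a gave intensities of 165 and 186 in the wild type oil arrays, 52.7 and 53.8 in wild type PPT, 161 and 142 in MOER oil, 157 and 181 in MOER PPT, 179 and 161 in ERKO oil and 141 and 141 in ERKO PPT. Both wild type PPT arrays lay under the 40th percentile of their own array, 57.8 and 54.0, so the level there is only bounded, and the other 10 arrays stood above 140. Ppargc1a was at least 3.14-fold lower with PPT than with oil in wild type, where the bound sets the dim arrays at their 40th percentile (fitted log2 change -1.46 ± 0.11, limma adjusted p = 2.06e-06). The log2 change was 0.14 ± 0.11 in MOER (adjusted p = 0.641) and -0.24 ± 0.11 in ERKO (adjusted p = 0.142). The other probe set of Ppargc1a fell from 171 ± 19.7 to 34.1 ± 5.23 (mean ± SD, n = 2) in wild type, where it too lay under the 40th percentile of both PPT arrays, so that it was at least 3.06-fold lower (fitted log2 change -1.90, adjusted p = 1.96e-06). Its log2 change was 0.37 in MOER (adjusted p = 0.208) and -0.38 in ERKO (adjusted p = 0.0832).

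Foxo1, the transcription factor that insulin keeps out of the nucleus, had mean intensities (± SD, n = 2) of 176 ± 15.9 in wild type oil and 144 ± 0.403 in wild type PPT, 128 ± 5.32 in MOER oil and 181 ± 0.587 in MOER PPT, and 162 ± 6.58 in ERKO oil and 138 ± 15.4 in ERKO PPT. In the order of the means wild type oil overlapped MOER PPT and ERKO oil, and ERKO PPT overlapped wild type PPT and MOER oil. The MOER PPT, wild type oil and ERKO oil arrays lay above all the others. Foxo1 rose 1.41-fold with PPT in MOER (log2 change 0.45 ± 0.10, limma adjusted p = 0.0275), a call lost when any 1 of the 4 MOER arrays or either wild type PPT array was left out (0.41 to 0.49, adjusted p = 0.0566 to 0.188). Its change was -0.26 ± 0.10 in wild type (adjusted p = 0.0739, or 0.0460 without either ERKO oil array) and -0.21 ± 0.10 in ERKO (adjusted p = 0.179).

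Irs2 encodes the adaptor that couples the hepatic insulin receptor to its kinase cascade. Its intensities were 104 and 103 in the wild type oil arrays, 141 and 109 in wild type PPT, 73.3 and 93.6 in MOER oil, 129 and 125 in MOER PPT, 47.5 and 101 in ERKO oil and 107 and 111 in ERKO PPT. The first ERKO oil array stood apart at 47.5, under its own 40th percentile of 54.1, and the wild type PPT arrays overlapped both MOER PPT and ERKO PPT. Those 2 groups did not overlap each other. Irs2 was called in no PPT response: the log2 changes were 0.23 ± 0.23 in wild type (limma adjusted p = 0.494), 0.53 ± 0.23 in MOER (adjusted p = 0.299) and 0.54 ± 0.23 in ERKO (adjusted p = 0.129). Its standard error was the largest of the 9 genes. Without the second ERKO oil array, which leaves the low one, the ERKO change was 0.98 (adjusted p = 0.00259), and without either ERKO oil array the MOER change of 0.53 had an adjusted p of 0.0282.

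Of the hormone-responsive genes, Igfbp1 had the widest range of group means among the 9, 13.0-fold from lowest to highest. Its intensities were 219.7 and 190.4 in the wild type oil arrays, 1194 and 1159.7 in wild type PPT, 135 and 125 in MOER oil, 249.6 and 254 in MOER PPT, 107 and 74.5 in ERKO oil and 201 and 206 in ERKO PPT. The wild type PPT arrays stood above all others, the ERKO oil arrays lay lowest, and in every genotype both PPT arrays were above both oil arrays. Igfbp1 rose 5.74-fold with PPT in wild type (log2 change 2.44 ± 0.13, limma adjusted p = 2.66e-07), 1.93-fold in MOER (0.87 ± 0.13, adjusted p = 0.00275) and 2.25-fold in ERKO (1.06 ± 0.13, adjusted p = 4.78e-04). The upstream window of Igfbp1 holds the FOXO element CAAAACA, and that of G6pc holds it on the other strand. The part of this element in the response of either gene was not tested.

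Tat, which starts tyrosine breakdown, gave intensities of 7342 and 7814 in the wild type oil arrays, 10671 and 10044 in wild type PPT, 9771 and 10101 in MOER oil, 9139 and 9968 in MOER PPT, 10180.5 and 8558 in ERKO oil and 5949.8 and 5729 in ERKO PPT. ERKO PPT was the lowest group and wild type oil the next, and the other 4 groups each overlapped their neighbours in the order of the means, though wild type PPT lay above MOER PPT. Tat rose 1.37-fold with PPT in wild type (log2 change 0.45 ± 0.10, limma adjusted p = 0.00669) and fell 1.60-fold in ERKO (-0.68 ± 0.10, adjusted p = 0.00174). Its change in MOER was -0.058 ± 0.10 (adjusted p = 0.888). The wild type call was lost without the first wild type oil array or the first wild type PPT array (0.41 in each case, adjusted p = 0.0605 to 0.0619). The ERKO PPT arrays, where Tat, Pck1, Fbp1 and Pcx were low, are those that also hold the skeletal muscle RNA.

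In counts, 3 of the 9 genes rose (Pck1, Igfbp1, Tat) and 4 fell (G6pc, Fbp1, Pcx, Ppargc1a) with PPT in wild type, where 14.8% of all tested probe sets rose and 16.2% fell. In MOER, 4 rose (Pck1, Pcx, Foxo1, Igfbp1) and 0 fell, against 2.35% and 2.31% of all tested probe sets. In ERKO, 1 rose (Igfbp1) and 4 fell (Pck1, Fbp1, Pcx, Tat), against 9.48% and 8.46%. Because the 9 genes were chosen with earlier results of these data known, the shares are a background and no test of the set. Changes that also reached the authors' minimum of 2-fold numbered 3 for the wild type response (G6pc, Ppargc1a and Igfbp1, with 5.9% of all tested probe sets), 1 for MOER (Pck1, with 0.884%) and 1 for ERKO (Igfbp1, with 1.61%). The median log2 change of the 9 was -0.26, 0.45 and -0.24 in the order wild type, MOER, ERKO, beside medians of 0.0048, 0.0022 and 0.0016 over all 13987 genes. Igfbp1, Pck1 and Pcx were called in all 3 genotypes. Igfbp1 was called in the same direction in each, Pck1 with the opposite sign in ERKO and Pcx with the opposite sign in MOER. When each response was fitted on its own 4 arrays, 1 of the 5 ERKO calls remained, with adjusted p of 0.104 for Pck1, 0.161 for Fbp1, 0.171 for Pcx and 0.0638 for Tat.

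**Figure D2:**
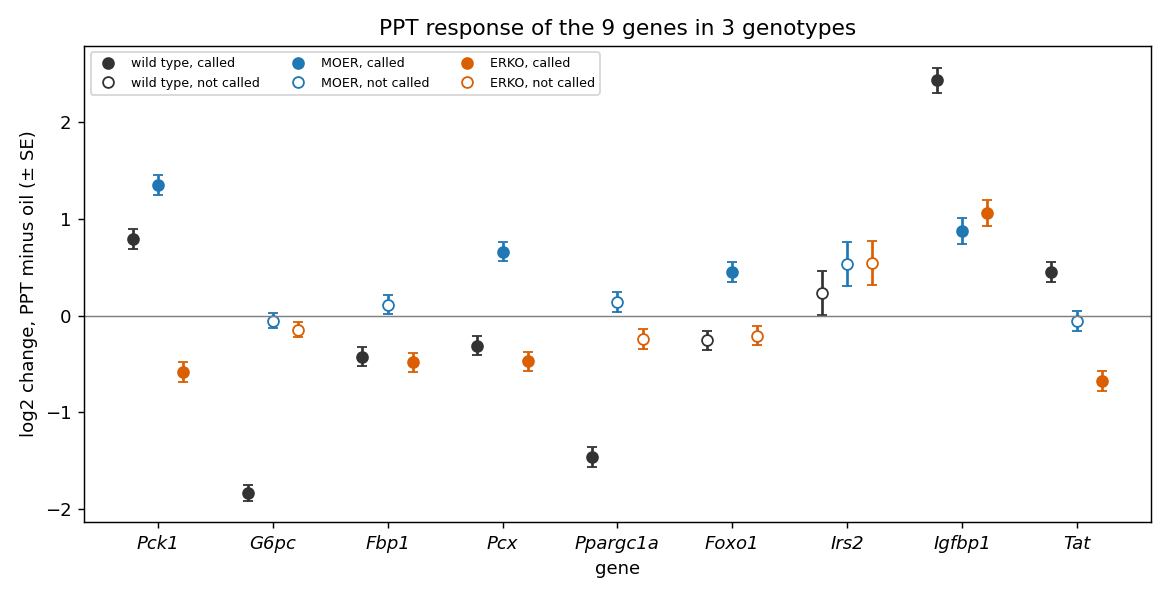
Log2 change with PPT against oil for each of the 9 genes in wild type, MOER and ERKO, with the standard error of the fit over 12 arrays as error bars (filled where called). Igfbp1 lies above 0 in all 3 genotypes, G6pc and Ppargc1a lie far below 0 in wild type, and Pck1 lies above 0 in wild type and MOER and below it in ERKO.

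The differences between the PPT responses of the genotypes were tested directly, as interaction terms of the same fit. The 3 differences share arrays with each other and with the responses, so they are not independent. Between wild type and MOER 8 of the 9 genes differed (all tested probe sets 21.6%), between wild type and ERKO 5 of 9 (22.3%), and between MOER and ERKO 5 of 9 (11.5%). The median of the 9 was -0.56, 0.06 and 0.60 log2 in these 3 differences, and over all genes it was -0.0056, -0.018 and -0.0016.

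The wild type response of G6pc was lower than that of MOER by a log2 difference of -1.78 ± 0.11 (limma adjusted p = 1.66e-06) and than that of ERKO by -1.69 ± 0.11 (adjusted p = 1.97e-06). Between MOER and ERKO the G6pc responses differed by 0.093, with a 95% interval of -0.15 to 0.34 (adjusted p = 0.655). Ppargc1a followed the same order, with fitted differences of -1.60 ± 0.15 from MOER (adjusted p = 2.81e-05) and -1.22 ± 0.15 from ERKO (adjusted p = 2.07e-04), whose size depends on the dim wild type PPT level. Its MOER minus ERKO difference was 0.38 ± 0.15 (adjusted p = 0.132), and 0.75 (adjusted p = 0.0323) on the other probe set. The rise of Igfbp1 was greater in wild type than in MOER by 1.56 ± 0.19 (adjusted p = 1.53e-04) and than in ERKO by 1.37 ± 0.19 (adjusted p = 4.20e-04). Its MOER and ERKO responses differed by -0.19 (95% interval -0.60 to 0.23, adjusted p = 0.578), or by -0.41 (adjusted p = 0.0455) without the first ERKO oil array.

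Pck1 set ERKO apart. Its response exceeded that of ERKO by 1.93 ± 0.15 in MOER (limma adjusted p = 1.24e-05) and by 1.37 ± 0.15 in wild type (adjusted p = 7.43e-05). The wild type rise was smaller than the MOER rise by a difference of -0.56 ± 0.15 (adjusted p = 0.0181), a call lost on leaving out any 1 wild type array, the first MOER oil array or the second MOER PPT array (-0.57 to -0.49, adjusted p = 0.0565 to 0.0716). Tat also differed in all 3 pairs, by 1.13 between wild type and ERKO (adjusted p = 3.10e-04), 0.51 between wild type and MOER (adjusted p = 0.0303) and 0.62 between MOER and ERKO (adjusted p = 0.0223). The difference of Tat from MOER was lost on leaving out any 1 of the wild type and MOER arrays other than the second MOER PPT array (0.45 to 0.55, adjusted p = 0.0626 to 0.116). Its MOER minus ERKO difference was lost without either ERKO PPT array, either MOER oil array or the second MOER PPT array (0.56 to 0.65, adjusted p = 0.0577 to 0.0851).

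Pcx, Foxo1 and Fbp1 set MOER apart from the other genotypes. For Pcx the wild type minus MOER difference was -0.97 ± 0.14 (limma adjusted p = 4.90e-04) and the MOER minus ERKO difference 1.13 ± 0.14 (adjusted p = 5.11e-04), while wild type minus ERKO was 0.16 (95% interval -0.15 to 0.46, adjusted p = 0.472). For Foxo1 they were -0.71 ± 0.14 (adjusted p = 0.00414), 0.66 ± 0.14 (adjusted p = 0.0140) and -0.051 (95% interval -0.36 to 0.26, adjusted p = 0.852). The MOER minus ERKO call of Foxo1 was lost without the second ERKO PPT or the second MOER oil array (0.56 to 0.62, adjusted p = 0.0597 to 0.0662). For Fbp1 the differences were -0.54 ± 0.14 (adjusted p = 0.0163), 0.60 ± 0.14 (adjusted p = 0.0191) and 0.058 (95% interval -0.25 to 0.36, adjusted p = 0.821). The first was lost on leaving out any 1 wild type array, the second MOER oil or the second MOER PPT array (-0.55 to -0.52, adjusted p = 0.0534 to 0.0615). The MOER minus ERKO call of Fbp1 was lost on leaving out any 1 MOER or ERKO PPT array (0.58 to 0.62, adjusted p = 0.0537 to 0.0696). All comparisons with the MOER response rest on the MOER oil arrays, which hold the acinar RNA.

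Irs2 was called in none of the 3 differences, which were -0.30 ± 0.32 (limma adjusted p = 0.602), -0.31 ± 0.32 (adjusted p = 0.556) and -0.0099 ± 0.32 (adjusted p = 0.989) for wild type minus MOER, wild type minus ERKO and MOER minus ERKO. Without the second ERKO oil array the wild type minus ERKO difference was -0.75 (adjusted p = 0.0187).

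**Figure D3:**
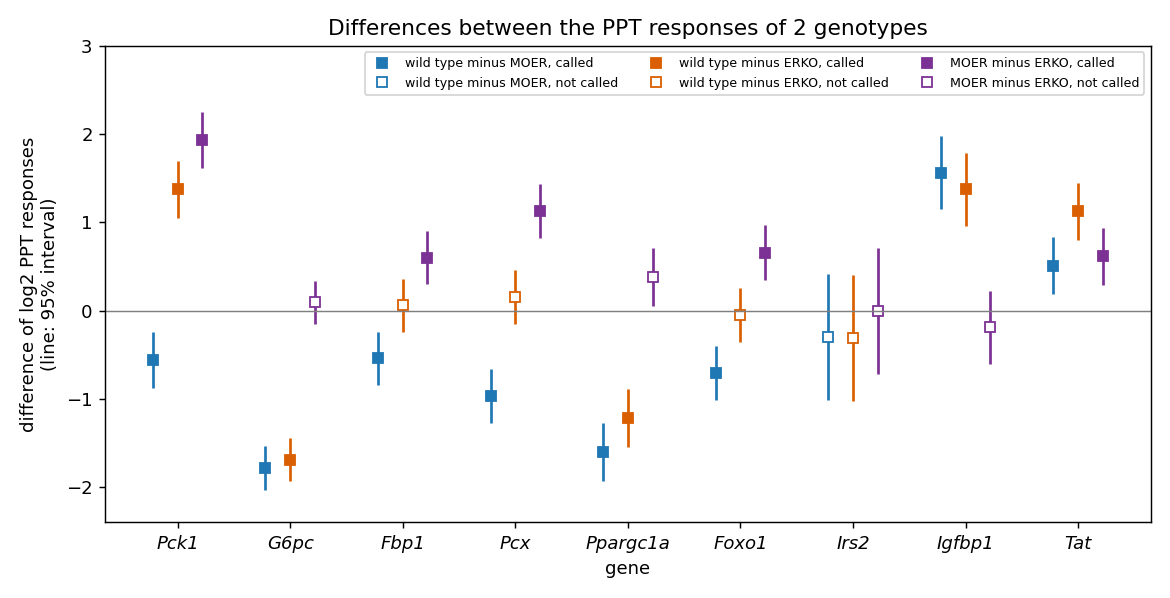
Differences between genotypes in the log2 PPT response of each of the 9 genes, with 95% intervals, for wild type minus MOER, wild type minus ERKO and MOER minus ERKO (filled where called). G6pc and Ppargc1a lie below 0 in both differences that involve wild type, Igfbp1 lies above 0 in them, and Pck1 and Pcx lie above 0 in MOER minus ERKO.

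Under oil the genotypes differed less. Between ERKO and wild type, 0 of the 9 genes were higher and 2 lower in ERKO, against 2.24% and 2.77% of all tested probe sets. Igfbp1 was 2.27-fold lower in ERKO (90.5 ± 22.6 against 205 ± 20.7, mean intensity ± SD, n = 2; log2 difference -1.07 ± 0.13, limma adjusted p = 0.00126). Pcx was 1.31-fold lower (-0.39 ± 0.10, adjusted p = 0.0497), a call lost on leaving out any 1 array other than the first ERKO oil array (-0.41 to -0.27, adjusted p = 0.0761 to 0.250). Without the second ERKO oil array Irs2 was lower (-0.91, adjusted p = 0.0110) and Tat higher (0.43, adjusted p = 0.0379) in ERKO.

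Between MOER and wild type under oil, 0 of the 9 genes were higher and 4 lower in MOER, against 2.13% and 3.53% of all tested probe sets. The lower genes were Igfbp1 (-0.59 ± 0.13, limma adjusted p = 0.0269), Pck1 (-0.45 ± 0.10, adjusted p = 0.0303), Pcx (-0.44 ± 0.10, adjusted p = 0.0264) and Foxo1 (-0.41 ± 0.10, adjusted p = 0.0375), with values as log2 differences. Each call was lost on leaving out any 1 wild type oil or MOER oil array, and those of Pck1, Pcx and Foxo1 also on leaving out either wild type PPT array. Pck1 was lost besides without either ERKO PPT array and Foxo1 without either MOER PPT array. The adjusted p over the arrays left out that ended a call ran from 0.0742 to 0.197 for Igfbp1, 0.0530 to 0.164 for Pck1, 0.0521 to 0.196 for Pcx and 0.0606 to 0.242 for Foxo1. Tat stood 1.31-fold higher in MOER (0.39 ± 0.10, adjusted p = 0.0550, or 0.0115 without either ERKO oil array). The acinar markers, 11 of 11 of them higher in MOER oil than in wild type oil, move with this comparison, and their part in it was not tested.

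Between MOER and ERKO under oil, limma called 0 of the 9 genes, against 0.894% of all tested probe sets called higher and 1.16% called lower. At an unadjusted p under 0.05, for which the share over all probe sets was not counted, were 3 of the 9 (Pck1, Foxo1, Igfbp1). Their log2 differences were -0.37 ± 0.10 for Pck1 (adjusted p = 0.103), -0.31 ± 0.10 for Foxo1 (adjusted p = 0.158) and 0.47 ± 0.13 for Igfbp1 (adjusted p = 0.106). Without the second ERKO oil array Pck1 was called lower (-0.51, adjusted p = 0.0169) and Irs2 higher (0.64, adjusted p = 0.0416) in MOER, and without the first Igfbp1 was called higher (0.69, adjusted p = 0.00531). G6pc, Fbp1 and Ppargc1a were called in none of the 3 comparisons under oil, with log2 differences between -0.19 and -0.035.

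Among the 9 genes themselves, log2 values over the 12 arrays were most alike for G6pc and Ppargc1a (Pearson r = 0.983), followed by Pcx with Foxo1 (r = 0.777) and Pck1 with Pcx (r = 0.748). The arrays share groups, so these coefficients describe the pattern over 6 groups and carry no test. Outside the 9 genes, the most similar to G6pc were Klf12 (r = 0.997) and Slc25a23 (r = 0.991), and to Ppargc1a they were Acsm3 (r = 0.990) and P2ry4 (r = 0.989). Over the 10 arrays without wild type PPT these fell to 0.853, 0.834, 0.862 and 0.844. Pck1 was most like Copa (r = 0.970) and Qsox1 (r = 0.964), with 0.967 and 0.951 over the 10 arrays. Fbp1 was most like Tpp1 (r = 0.983) and Ptbp3 (r = 0.980), Pcx like Lgals3bp (r = 0.964) and Helz2 (r = 0.963), and Foxo1 like Dna2 (r = 0.943) and Grpel2 (r = 0.938). Igfbp1 was most like Slc25a33 (r = 0.975, or 0.851 over the 10 arrays) and Gucd1 (r = 0.974, or 0.909). The closest to Tat were Cd72 (r = 0.920) and Atp6ap1 (r = 0.913), and those to Irs2, Scaf1 (r = 0.873) and Arhgap4 (r = 0.857), were the least close.

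The wider pathway was described through 9 lists of 137 symbols, of which 120 had a probe set with that single symbol and 117 were tested. Of all tested probe sets, 14.8% rose and 16.2% fell in wild type, 2.35% and 2.31% in MOER, and 9.48% and 8.46% in ERKO. Enzymes of amino acid breakdown, which feed gluconeogenesis, fell in wild type as G6pc did: 10 of 11 tested genes fell and 0 rose in wild type (median log2 change -0.99), and 5 fell and 0 rose in ERKO (median -0.27). In MOER limma called 0 of the 11 (1 at an unadjusted p under 0.05, median -0.01). Prodh, proline dehydrogenase, fell from 1275 ± 90.0 to 266 ± 9.32 in wild type (log2 change -2.19 ± 0.11, adjusted p = 1.39e-07), and Hal, histidine ammonia-lyase, from 4200.5 ± 113 to 1574 ± 44.0 (log2 change -1.41 ± 0.082, adjusted p = 4.78e-07), with intensities as mean ± SD of 2 arrays. In ERKO Fah, the last enzyme of tyrosine breakdown, fell from 2741 ± 275 to 1596 ± 8.82 (log2 change -0.77 ± 0.091, adjusted p = 3.55e-04), as did Tat. Prodh and Hal also fell in ERKO, by log2 changes of -0.69 and -0.58, and Fah in wild type, by -0.97. Tat, unlike these genes, rose in wild type, by a log2 change of 0.45.

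Of 16 enzymes and carriers shared by gluconeogenesis and glycolysis or feeding them, 1 rose and 4 fell in wild type (median 0.05), 1 rose and 0 fell in MOER (0.06) and 1 rose and 4 fell in ERKO (-0.09). Got1, cytosolic aspartate aminotransferase, fell from 1966 ± 40.3 to 789 ± 11.5 in wild type (log2 change -1.30 ± 0.087, adjusted p = 1.19e-06). Slc37a4, the transporter that brings glucose-6-phosphate to G6pc, rose from 1292 ± 22.6 to 1740.4 ± 5.83 in MOER (log2 change 0.43 ± 0.11, adjusted p = 0.0483). It fell from 1997 ± 235 to 1008 ± 109 in ERKO (log2 change -0.97 ± 0.11, adjusted p = 1.89e-04). The gene that rose in ERKO was Ldhb, a lactate dehydrogenase subunit, in the arrays with skeletal muscle RNA.

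Genes of glucose use, glycolysis and their control changed as well. Of 12 such genes, 0 rose and 6 fell in wild type (median -0.51). In MOER 0 rose and 1 fell (0.04), and in ERKO 1 rose and 4 fell (-0.24). The list also holds genes that restrain glucose use, so its counts give no direction for the pathway. Among these, Pdk2 and Txnip fell in wild type (log2 changes -1.74 and -1.22), and Pdk4 was the gene that rose in ERKO (1.62 ± 0.25). Pdk4 went from 87.2 ± 49.6 in ERKO oil to 282 ± 0.064 in ERKO PPT, the arrays with skeletal muscle RNA. Slc2a2, the hepatocyte glucose transporter, fell from 2259 ± 85.3 to 669 ± 39.1 in wild type (log2 change -1.73 ± 0.10, adjusted p = 4.50e-07). It fell from 2464 ± 93.7 to 1014 ± 106 in ERKO (log2 change -1.27 ± 0.10, adjusted p = 1.68e-05). Pklr, the liver pyruvate kinase whose step Pcx and Pck1 bypass, fell in all 3 genotypes, by log2 changes of -1.64 with the receptor intact, -0.37 in MOER and -1.03 in ERKO (adjusted p = 2.85e-07, 0.0422 and 3.55e-05). Of 12 glycogen genes, 1 rose and 6 fell in wild type (median -0.24), 1 rose and 2 fell in MOER (-0.02), and 0 rose and 4 fell in ERKO (-0.29). Gys2, the liver glycogen synthase, rose from 1166 ± 77.1 to 2024 ± 191 in MOER (log2 change 0.79 ± 0.10, adjusted p = 9.39e-04). It fell in wild type (log2 change -0.82 ± 0.10, adjusted p = 1.16e-04) and from 2318 ± 174 to 1068 ± 3.64 in ERKO (log2 change -1.10 ± 0.10, adjusted p = 5.86e-05).

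Among the upstream regulators, 5 of 19 insulin signalling genes rose and 5 fell in wild type (median -0.02). In MOER 2 rose and 0 fell (0.10), and in ERKO 3 rose and 2 fell (-0.08). The list holds carriers of the signal and its inhibitors, so its counts give no direction for the signal. Inhibitors were among the genes that rose: Ptpn1 in wild type (log2 change 0.41) and Socs3 in MOER and ERKO (0.74 and 0.37). Pik3r1, the regulatory subunit of phosphoinositide 3-kinase, rose from 557 ± 13.0 to 1564 ± 50.7 in wild type (log2 change 1.46 ± 0.092, adjusted p = 7.98e-07). It fell from 656 ± 36.9 to 438 ± 2.00 in ERKO (log2 change -0.56 ± 0.092, adjusted p = 0.00257). Insr, the insulin receptor, rose in MOER from 691 ± 3.98 to 976 ± 19.7 (log2 change 0.49 ± 0.089, adjusted p = 0.00936). It fell in wild type (log2 change -0.51 ± 0.089, adjusted p = 0.00124) and in ERKO (log2 change -0.31 ± 0.089, adjusted p = 0.0356). Of 12 glucagon and cAMP genes, 1 rose and 2 fell in wild type (median -0.05) and 1 rose and 3 fell in ERKO (-0.13). In MOER limma called 0 of them (4 at an unadjusted p under 0.05, median 0.08). The wild type counts lay near the shares over all tested probe sets, 14.8% higher and 16.2% lower. Gcgr, the glucagon receptor, fell in wild type from 915 ± 1.11 to 527 ± 34.8 (log2 change -0.78 ± 0.10, adjusted p = 1.45e-04) and also fell in ERKO (log2 change -0.39 ± 0.10, adjusted p = 0.0237).

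Of 13 genes of glucocorticoid action, the hormone system known for Tat, 1 rose and 9 fell in wild type (median -0.84). In MOER 5 rose and 1 fell (0.24), and in ERKO 0 rose and 3 fell (-0.08). Tat itself rose in wild type and fell in ERKO, by log2 changes of 0.45 and -0.68, and was not called in MOER (-0.058). Mt1, a metallothionein that also responds to metals, fell from 3531 ± 113 to 856 ± 13.5 in wild type (log2 change -2.02 ± 0.092, adjusted p = 7.37e-08). It rose from 3403 ± 46.1 to 8069.6 ± 4.89 in MOER (log2 change 1.24 ± 0.092, adjusted p = 1.61e-05). Of 15 transcription factors and cofactors, 2 rose and 8 fell in wild type (median -0.41), 2 rose and 1 fell in MOER (0.11) and 0 rose and 7 fell in ERKO (-0.32). Cebpa, a liver transcription factor, fell in wild type from 1052 ± 14.7 to 393 ± 23.8 (log2 change -1.39 ± 0.10, adjusted p = 2.73e-06) and also in ERKO (log2 change -0.37 ± 0.10, adjusted p = 0.0336). Nr0b2, the corepressor SHP, fell in MOER from 727 ± 67.1 to 258 ± 40.1 (log2 change -1.45 ± 0.15, adjusted p = 2.43e-04). It rose in wild type from 597 ± 3.34 to 1318 ± 29.4 (log2 change 1.12 ± 0.15, adjusted p = 2.37e-04).

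The relatives of Igfbp1 did not share its rise in wild type. Of 8 genes for other IGF binding proteins, IGF1 and its acid-labile partner, 0 rose and 6 fell in wild type (median -0.83), limma called 0 in MOER (3 at an unadjusted p under 0.05, median -0.03), and 2 rose and 3 fell in ERKO (-0.09). Igfbp2 fell in wild type from 1539 ± 3.49 to 471 ± 13.7 (log2 change -1.67 ± 0.10, adjusted p = 7.59e-07) and Igfbp4 from 2719 ± 5.11 to 1333 ± 101 (log2 change -1.02 ± 0.09, adjusted p = 9.10e-06). Both also fell in ERKO, by log2 changes of -0.42 and -0.38. Igfbp6 rose in ERKO from 90.9 ± 4.33 to 217 ± 14.0 (log2 change 1.12 ± 0.095, adjusted p = 2.79e-05), in the arrays with skeletal muscle RNA. The background for all of these counts of calls is that of the responses given above. For the counts at an unadjusted p under 0.05, the share over all probe sets was not counted. The lists were chosen with earlier results of these data known, so the counts are descriptions.

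**Figure D4:**
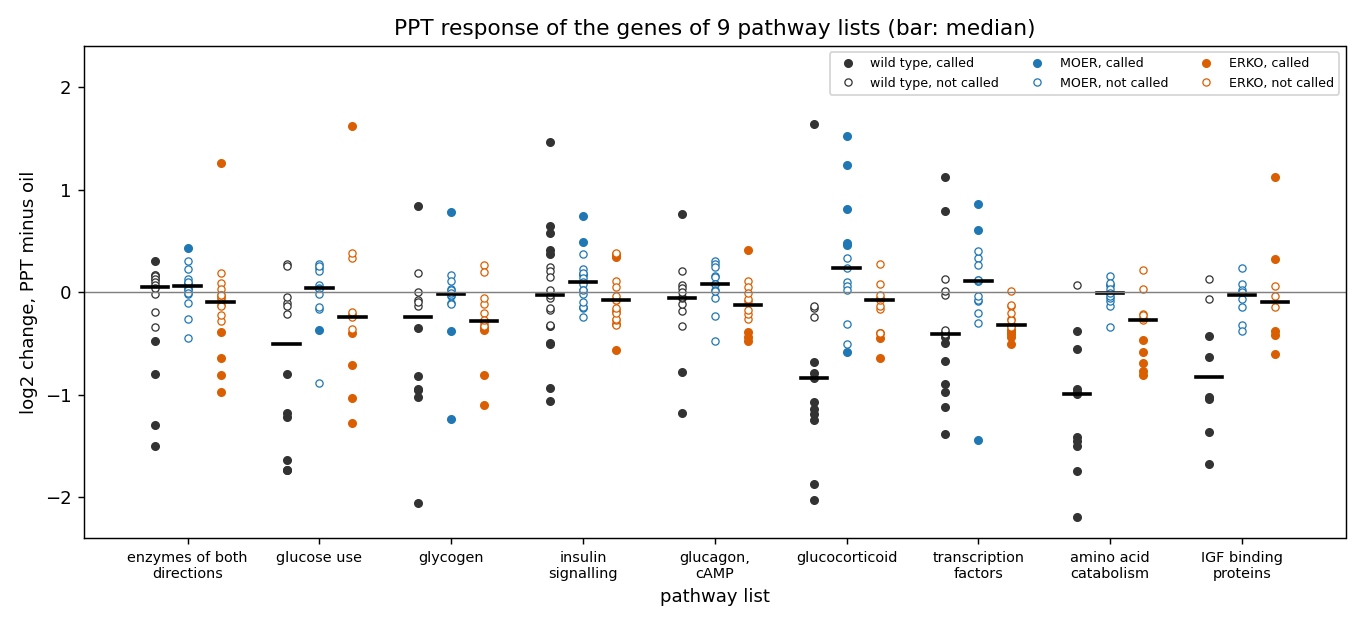
Log2 PPT responses of the tested genes of the 9 pathway lists in wild type, MOER and ERKO (points, 1 per gene, filled where called) with the median of each list (bar). The medians of amino acid catabolism, glucocorticoid action and IGF binding proteins lie below -0.8 in wild type and within 0.3 of 0 in MOER and ERKO.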

How the data were processed

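Whole-liver RNA was hybridised to 12 Affymetrix Mouse Gene 1.0 ST arrays. The authors deposited 1 linear hybridisation intensity per probe set and array, for 28815 probe sets. The probe summary and array normalisation are not given in the sources used here. Array medians were alike, so no further normalisation was applied. Per the labels' protocols, the authors tested with Cyber-T and required at least 2-fold.

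Intensities were taken as log2(intensity + 16). A probe set was tested if it exceeded its array's 40th percentile in at least 2 arrays, which held for 19119. A single limma model with 6 group means was fitted to the 12 arrays (limma 3.58.1, R 4.3.3, lmFit and eBayes without trend, 6 residual and 10.47 moderated degrees of freedom), with 9 contrasts, two-sided tests and Benjamini-Hochberg adjustment per contrast. The fit was tested on simulated data. The number of arrays limits precision. A group whose 2 arrays lay under their 40th percentile counted as dim, and folds against it are bounds.

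Every member is named in each comparison. From each pathway list the 2 genes of smallest p among those called could be named, and for likeness the 2 genes of highest r. Members and lists were chosen with earlier results of these data known. Alternatives covered the pseudocount, filter, scaling, probe set choice, spread, a replicate block and each array left out. In the platform annotation 21780 probe sets had 1 symbol, 1605 had several and 5430 had none.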

Additional observations from a re-analysis of the deposited data

Results flagged for a closer look

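In 18 cases the PPT response of one of the 9 genes differed between genotypes by the test of the difference itself (limma interaction term, adjusted p under 0.05), and the values are log2 differences between responses. Wild type minus MOER was -0.56 for Pck1, -1.78 for G6pc, -0.54 for Fbp1, -0.97 for Pcx, -1.60 for Ppargc1a, -0.71 for Foxo1, 1.56 for Igfbp1 and 0.51 for Tat. Wild type minus ERKO was 1.37 for Pck1, -1.69 for G6pc, -1.22 for Ppargc1a, 1.37 for Igfbp1 and 1.13 for Tat. MOER minus ERKO was 1.93 for Pck1, 0.60 for Fbp1, 1.13 for Pcx, 0.66 for Foxo1 and 0.62 for Tat. G6pc and Ppargc1a differed in both comparisons with wild type, and Pck1 and Tat differed in all 3. Of all tested probe sets, 21.6% differed between wild type and MOER, 22.3% between wild type and ERKO and 11.5% between MOER and ERKO. The wild type minus MOER calls of Pck1, Fbp1 and Tat were lost when certain single arrays were left out. So were the MOER minus ERKO calls of Fbp1, Foxo1 and Tat. With 2 arrays a group, no test for a single deviating array was made.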

How the results depend on the processing

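No called value of the 9 genes changed sign under any alternative. Of 40 called values, 21 kept the call in every setting and with each array left out, and of 41 values that were not called, 28 were called in none. In 26 cases a value changed sign while it was called in neither setting. The number of the 9 genes called with each array left out in turn ran from 5 to 8 for the wild type response, 3 to 5 for MOER and 4 to 6 for ERKO. It ran from 5 to 8 for wild type minus MOER, 5 to 6 for wild type minus ERKO and 2 to 6 for MOER minus ERKO, and under oil from 1 to 3 for ERKO minus wild type, 0 to 5 for MOER minus wild type and 0 to 2 for MOER minus ERKO. Fitting only the arrays compared, which leaves fewer samples for the spread, gave 1 call in the ERKO response, 2 in MOER minus ERKO and 0 in ERKO minus wild type under oil. For ERKO minus wild type under oil 1 gene was called with a pseudocount of 1, with no filter, and with median centring. With no filter 0 were called for MOER minus wild type under oil, and for MOER minus ERKO under oil quantile normalisation and an intensity trend each called 1. The calls of the wild type and MOER responses were all kept when each was fitted on its own arrays. The cause of the calls lost or gained was not tested.

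The replicate numbers were taken to be names only. Over 15 pairs of groups the deviations of same-numbered arrays correlated at r = -0.15 to 0.38, and 5 pairs were over 0.1. With the replicate number as a block, 1 of the 9 genes was called between ERKO and wild type under oil in place of 2, the call lost being Pcx, ERKO minus wild type under oil (adjusted p = 0.0532), and the counts of the other 8 comparisons did not move.

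The 2 arrays per group and the spread between the ERKO oil arrays limit small changes, above all for Irs2, and levels near the 40th percentile are bounds.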
